A study of Mus musculus with 9 samples.

Results

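Collagens are extracellular proteins in which 3 chains, each encoded by its own gene, wind into a triple helix. The fibril-forming types I and III give the aortic wall its tensile strength, and the remaining types make networks, beaded filaments, fibril-surface molecules and membrane proteins that organise the matrix or anchor cells to it. Endothelial cells sit on a basement membrane built on a collagen IV network, whose common form holds the chains Col4a1 and Col4a2. The chains described here are all those whose array symbol has the form of a collagen chain name, other than Col4a1, Col4a2, Col1a1, Col1a2 and Col3a1. The rule found 39 genes, of which 38 had a value, among 30743 named genes on the array. The cluster that carries Col7a1, the anchoring fibril collagen, also names a microRNA gene, so Col7a1 has no value here.

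RNA came from the lining of the thoracic aorta, obtained from single aortas of female mice by rinsing the lumen with TRIzol, which lyses the cells it touches. ACDiEKO mice carried Cdh5-CreERT2, a tamoxifen-dependent recombinase driven by an endothelial promoter, together with floxed Mef2a, Mef2c and Mef2d (f/f for each), which encode MEF2 transcription factors. Controls were littermates with the same floxed alleles and no Cre, so an effect of the recombinase itself and that of MEF2 loss cannot be told apart. All mice received 5 daily tamoxifen injections at 10 weeks of age. For the time from first injection to harvest, the series text gives 7 days but the protocols of the samples give 14. There were 4 control and 5 ACDiEKO arrays, with 1 aorta per array. ACDiEKO replicates 1 and 2 were almost identical: over bright clusters the difference between them had a robust SD of 0.0707, against 0.268 to 0.401 in the other 15 pairs of one group. They were averaged, which left 4 samples per group. Nothing in the labels says that these are separate litters, so p-values measure the spread between these samples only.

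Values are the deposited log2 units, in which the highest value was 19.34, above what a 16-bit scanner can give. A scaling step that is not stated was therefore applied, and differences are given in log2 units and not as folds. The value of one gene is not a level that can be set against another gene's, since probes differ. All 9 endothelial markers with a value passed the filter on dim genes; their mean was 13.71 to 14.23 on control arrays and 13.00 to 13.58 on ACDiEKO arrays, without overlap. Of the 9, 1 rose (Kdr, 0.96), 3 fell (Cldn5, -3.59; Tek, -1.92; Pecam1, -0.37) and 5 did not pass (limma, adjusted p of 0.05). Without Cldn5 and Tek, left out after their values were seen, the mean of the other 7 overlapped, at 13.24 to 13.60 in control and 13.19 to 13.47 in ACDiEKO. The mean of 14 smooth muscle markers was 8.53 to 9.35 in control and 9.68 to 10.57 in ACDiEKO, also without overlap. Of the 13 tested, 9 rose and none fell (limma, adjusted p of 0.05). Rises were largest in Tagln (3.82), Myl9 (3.68) and Acta2 (3.19). Mylk (0.43), Myh11 (-0.04), Cnn1 (-0.27) and Itga8 (-0.47) did not pass, and Des lay under the filter. Calls covered 44.4% of the tested endothelial and 69.2% of the tested smooth muscle markers, against 16.1% of all tested genes. The mean of 13 adventitial fibroblast markers overlapped, at 8.20 to 8.42 and 7.91 to 8.48. The mean was 5.83 to 6.17 in control and 5.64 to 5.83 in ACDiEKO for 5 Schwann cell markers, 7.13 to 7.28 and 6.85 to 7.03 for 8 chondrocyte markers, 6.28 to 7.25 and 6.57 to 8.61 for 8 mesothelial markers, 7.96 to 10.01 and 7.04 to 9.30 for 7 adipocyte markers, and 8.15 to 9.39 and 7.93 to 9.16 for 2 erythrocyte markers. Only 1 of the 5 Schwann cell markers (S100b, -1.22) and 2 of the 8 chondrocyte markers (Hapln1, -0.85, and Cytl1, -1.18) passed the filter, and those 3 carry the lower means. Here and below, a change in the number of cells of a type and a change in RNA per cell cannot be told apart. Nor do the arrays show which cells the RNA of a marker came from.

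Most of these collagens were dim on this array, and 3 of those bright enough to test differed between genotypes. The filter on dim genes asked for 4 or more arrays above 6.165, which is the median value of the table, and 15 of the 38 chains passed it. Of those 15, Col14a1 and Col18a1 rose in ACDiEKO, Col4a4 fell and 12 did not pass limma at an adjusted p of 0.05. These 3 calls are 20% of the tested chains, near the background of 16.1% of all 16698 tested genes (8.86% higher and 7.27% lower). That background was larger among brighter genes. It was 23.2% with a stricter filter, at 8.417, which only 1 of the 15 chains passed. The median difference of the 15 chains was 0.00, beside -0.03 over all tested genes. In 4 of the 15 the control and ACDiEKO samples did not overlap, against 22.9% of all tested genes. The array's antigenomic background features, which measure unspecific signal, ran from 2.83 to 7.52, with a median of 3.64. The control values of Col14a1 (7.02 to 7.44) and Col18a1 (7.07 to 7.21) lay within that range. So did the ACDiEKO mean of Col4a4 (7.33) and the control values of Col4a2 (7.21 to 7.31). These lower levels may therefore be close to background.

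**Figure D1:**
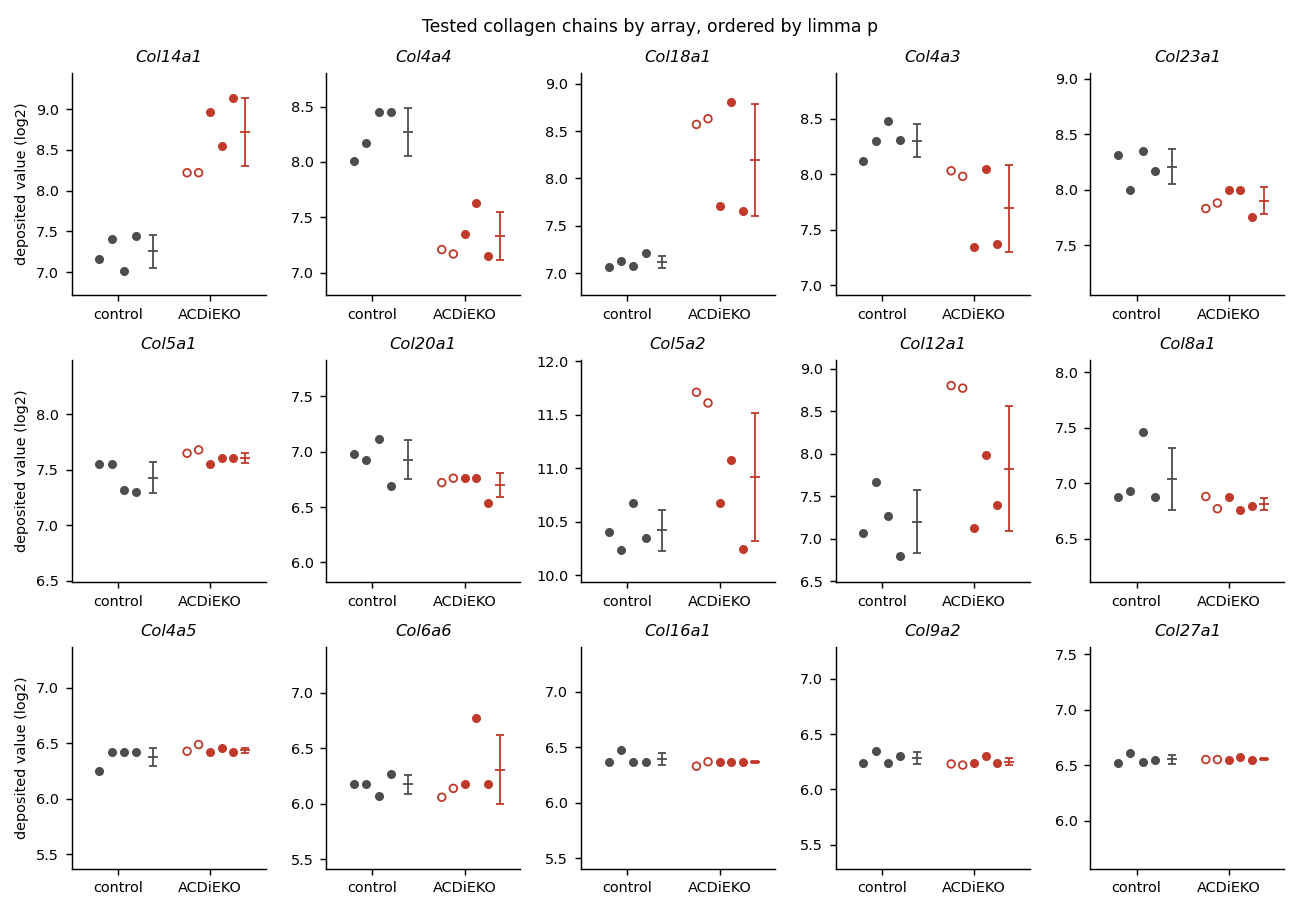
Deposited log2 values of the 15 tested collagen chains (y axis, each panel at its own offset) in 4 control arrays (grey) and 5 ACDiEKO arrays (red), in order of limma p. Open circles are the near-identical ACDiEKO replicates 1 and 2, averaged before testing, and bars are the mean and SD of 4 samples per group. Col14a1 and Col18a1 lie higher, and Col4a4 and Col4a3 lower, in ACDiEKO without overlap.

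The chains Col4a3 and Col4a4 join with Col4a5 in a collagen IV network that is best known from the kidney glomerulus, while Col4a5 also pairs with Col4a6 in other basement membranes. Col4a3 and Col4a4 are neighbours, known to be transcribed in opposite directions from a common region. In the RefSeq gene table (GRCm38.p6), which gives no strand, the lower-coordinate end of Col4a3, its start in that orientation, lies inside the promoter window of Col4a4. That shared window is shown because both genes had lower values in ACDiEKO. It holds 250 bases before and 50 after the Col4a4 start, on the Col4a4 strand, with the motif CACCC and its reverse complement GGGTG, which KLF factors can bind, in capitals.
Col4a4 and Col4a3, chr1:82586800-82587099, minus strand: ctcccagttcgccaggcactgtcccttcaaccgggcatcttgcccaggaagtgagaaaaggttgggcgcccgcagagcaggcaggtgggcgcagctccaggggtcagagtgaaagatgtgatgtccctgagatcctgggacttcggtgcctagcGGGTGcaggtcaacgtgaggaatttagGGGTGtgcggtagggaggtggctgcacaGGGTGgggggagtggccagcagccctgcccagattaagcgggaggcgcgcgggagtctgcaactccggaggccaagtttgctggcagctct
The window holds 3 matches of GGGTG and is 63.3% G+C, against a median of 52.7% over all 32851 promoter windows. The motif CACCC, on either strand, lies in 57.5% of all windows.

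Col4a4 was 8.01, 8.17, 8.45 and 8.45 on control arrays 1 to 4, and 7.21, 7.17, 7.35, 7.63 and 7.15 on ACDiEKO arrays 1 to 5. Every ACDiEKO array lay below every control. The mean fell from 8.27 ± 0.22 to 7.33 ± 0.22 (SD, n = 4 and 4), a log2 difference of -0.94 (SE 0.14; limma, adjusted p = 0.0047). The call held in the 20 alternatives that could test it, with differences of -1.04 to -0.76 and adjusted p between 0.00119 and 0.0473. Controls 3 and 4, whose animal numbers in the titles lie apart from all others, had the highest values. Among the animals of the other run of numbers the difference was -0.76 (limma, adjusted p = 0.0473).

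Its neighbour Col4a3 was 8.12, 8.30, 8.48 and 8.31 on the control arrays, and 8.03, 7.98, 7.34, 8.05 and 7.37 on the ACDiEKO arrays. The groups did not overlap, but ACDiEKO replicates 1, 2 and 4 lay just below the lowest control. The difference of -0.61 (SE 0.19) did not pass (limma, adjusted p = 0.061, and 0.0484 without ACDiEKO replicate 4). ACDiEKO replicates 3 and 5 were lowest for Col4a3, whereas replicate 4 was highest of its group for both genes.

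The common collagen IV chains, also a pair of neighbours transcribed in opposite directions, differed the other way. Col4a1 was 7.73, 7.76, 7.52 and 7.52 in control and 8.66, 8.74, 8.05, 8.52 and 8.05 in ACDiEKO, a rise of 0.70 (SE 0.16; limma, adjusted p = 0.0239). Col4a2 went from 7.27 ± 0.05 to 8.03 ± 0.33 (SD, n = 4 and 4), a rise of 0.76 (limma, adjusted p = 0.0133). Neither call held among animals of one run of numbers (Col4a1 0.59, adjusted p = 0.163; Col4a2 0.74, adjusted p = 0.10, limma), and that of Col4a1 also ended without control replicate 3 (0.0627), control replicate 4 (0.0664) or ACDiEKO replicate 4 (0.0703). The difference between the responses of the 2 pairs was not tested. For the X-linked neighbours Col4a5 and Col4a6 no such split could be sized, since 5 arrays of Col4a5 and 7 of Col4a6 shared one deposited value. Col4a5 was 6.25 on control 1 and between 6.42 and 6.49 on the other 8 arrays, a difference of 0.06 (limma, adjusted p = 0.541). Col4a6 lay under the filter, between 5.44 and 5.46 on all arrays.

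**Figure D2:**
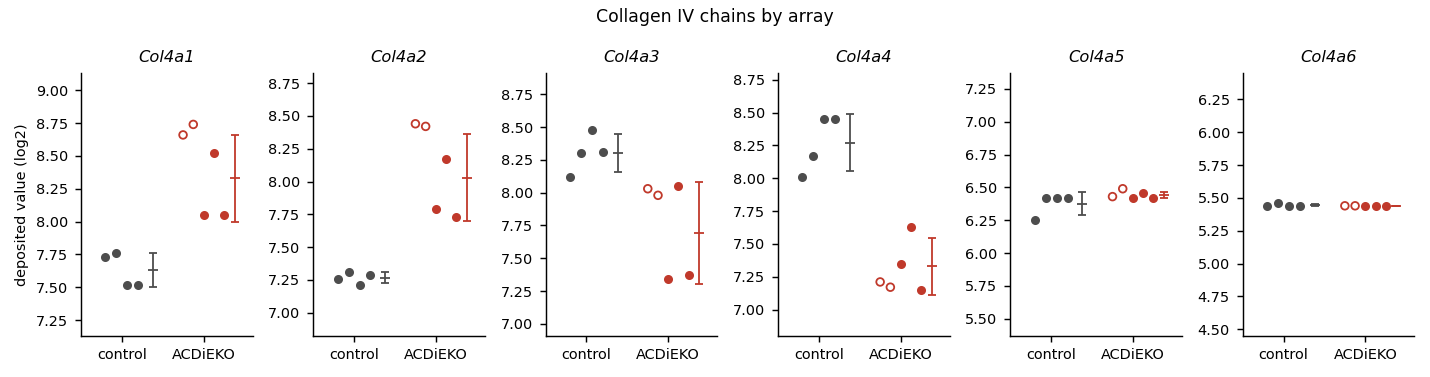
Deposited log2 values of the 6 collagen IV chains by array (control grey, ACDiEKO red, open circles the averaged replicates 1 and 2, bars mean and SD of 4 samples). Each panel has its own y axis offset. Col4a1 and Col4a2 lie higher in ACDiEKO, Col4a3 and Col4a4 lower, and Col4a5 and Col4a6 overlap between the groups.

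Col18a1 and Col15a1 encode the multiplexins, basement membrane collagens with interrupted helices and sugar side chains; the end of Col18a1 is released as endostatin, an inhibitor of vessel growth. Col18a1 is transcribed from more than one start, and RefSeq gives a pair of promoter windows. Both are shown because Col18a1 is the called basement membrane chain outside collagen IV; capitals again mark CACCC and GGGTG.
Col18a1, upstream start, chr10:77166481-77166780, minus strand: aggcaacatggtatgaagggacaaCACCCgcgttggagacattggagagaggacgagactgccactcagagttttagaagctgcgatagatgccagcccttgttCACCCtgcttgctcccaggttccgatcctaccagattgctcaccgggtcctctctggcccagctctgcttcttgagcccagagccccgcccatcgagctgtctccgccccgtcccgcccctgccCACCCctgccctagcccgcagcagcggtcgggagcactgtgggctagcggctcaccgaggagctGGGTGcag
Col18a1, downstream start, chr10:77113656-77113955, minus strand: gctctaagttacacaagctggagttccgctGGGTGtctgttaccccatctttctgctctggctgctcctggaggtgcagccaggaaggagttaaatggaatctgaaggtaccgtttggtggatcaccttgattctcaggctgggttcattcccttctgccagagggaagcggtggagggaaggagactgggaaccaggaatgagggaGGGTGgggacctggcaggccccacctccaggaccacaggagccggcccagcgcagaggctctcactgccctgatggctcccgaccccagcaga
The first window holds 4 matches and the second holds 2. The array value summarises the whole gene and does not tell the starts apart.

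Col18a1 was 7.07, 7.13, 7.08 and 7.21 on control arrays and 8.57, 8.63, 7.71, 8.81 and 7.66 on ACDiEKO arrays. All ACDiEKO arrays lay above all controls, but they fell into a higher set (replicates 1, 2 and 4) and a lower set (replicates 3 and 5). The mean rose from 7.12 ± 0.07 to 8.19 ± 0.59 (SD, n = 4 and 4), a log2 difference of 1.07 (SE 0.26; limma, adjusted p = 0.0287). The direction held in all 20 alternatives (0.87 to 1.25) and the call in 11. It ended when any 1 control array was left out (adjusted p 0.0641 to 0.0685), without ACDiEKO replicate 4 (0.0575) and without both near-identical arrays (0.0731). Among animals of one run of numbers the difference was 1.09 (limma, adjusted p = 0.142). The smooth muscle marker mean was highest on the same ACDiEKO arrays, at 10.51, 10.48 and 10.57 on replicates 1, 2 and 4 against 9.68 and 9.92 on replicates 3 and 5; its part in the result was not tested. Col15a1 lay under the filter at 5.82 to 5.89 on every array.

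Among the fibril-associated collagens, which sit on the surface of fibrils and join them to other matrix proteins, Col14a1 rose. It was 7.16, 7.41, 7.02 and 7.44 on control arrays and 8.22, 8.22, 8.96, 8.55 and 9.14 on ACDiEKO arrays. Every ACDiEKO array lay above every control. The mean rose from 7.26 ± 0.20 to 8.72 ± 0.41 (SD, n = 4 and 4), a log2 difference of 1.46 (SE 0.21; limma, adjusted p = 0.00345), the largest among the 15 chains. The call held in the 20 alternatives that could test it (1.25 to 1.63; adjusted p between 0.00199 and 0.0399), and among animals of one run of numbers the difference was 1.44 (limma, adjusted p = 0.0399).

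Within ACDiEKO, Col14a1 ran in the order of the adventitial fibroblast marker mean: that mean was 7.93 for the averaged replicates, 8.06 for replicate 4, 8.33 for replicate 3 and 8.48 for replicate 5. Within control, samples 1 and 3 were the lower ones and samples 2 and 4 the higher ones for both. Between the groups the marker mean overlapped, while Col14a1 did not, but that mean averages markers that rose and fell. Of the 10 fibroblast markers tested, 30% were called, against 16.1% of all tested genes. Of them 1 rose (Serpinf1, 0.77), 2 fell (Pi16, -2.41, and Clec3b, -1.60) and 7 did not pass. Among those 7, Dcn, the fibril-binding proteoglycan decorin, was 11.69 to 12.78 in control and 12.71 to 14.06 in ACDiEKO, a difference of 1.20 (SE 0.37; limma, adjusted p = 0.062). The rest of those 7 differed by 0.58 (Lum), 0.14 (Dpt), 0.07 (Fbln1), 0.04 (Dpep1), 0.01 (Ebf2) and -0.40 (Mfap5). Dcn passed in 4 of 21 alternatives and did not pass in the other 17. Limma gave an adjusted p of 0.0438 with the stricter filter and with quantile-normalized values. It was 0.0409 when arrays were centred on their medians and 0.0425 without both near-identical arrays. With a replicate block, which kept the near-identical replicates 1 and 2 as separate samples, Dcn differed by 0.67 (limma, adjusted p = 0.238). ACDiEKO replicates 4 and 5, where Dcn was highest, have no control of the same number and add nothing to that difference. The mean of 8 leukocyte markers was also highest on ACDiEKO replicate 5 (8.98, against 6.93 to 7.28 on the other ACDiEKO arrays and 6.54 to 7.15 in control). The part of these cell types in the rise of Col14a1 was not tested; without ACDiEKO replicate 5 the difference was 1.32 (limma, adjusted p = 0.00614).

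**Figure D3:**
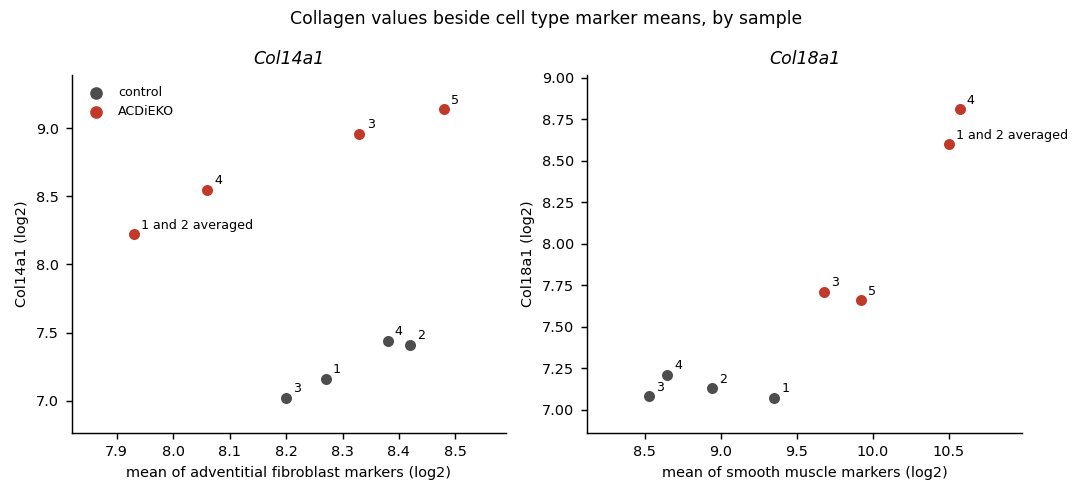
Left, Col14a1 (y axis) against the mean of 13 adventitial fibroblast markers (x axis); right, Col18a1 against the mean of 14 smooth muscle markers, all in deposited log2 units. Points are 4 control samples (grey) and 4 ACDiEKO samples (red), labelled by replicate. Col14a1 lies higher in ACDiEKO, while the fibroblast mean, which averages markers that rose (Serpinf1) and fell (Pi16, Clec3b), overlaps. The 2 highest Col18a1 samples have the highest smooth muscle means.

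Col12a1, the close relative of Col14a1, was 7.06, 7.67, 7.27 and 6.79 in control and 8.80, 8.77, 7.13, 7.98 and 7.39 in ACDiEKO. Only the near-identical replicates and replicate 4 lay above every control, and the difference of 0.62 (SE 0.36) did not pass (limma, adjusted p = 0.265). Col20a1 differed by -0.22 (SE 0.10; adjusted p = 0.175), Col16a1 by -0.03 and Col9a2 by -0.03 (both 0.03 after median centring), and none of the 3 passed limma. The remaining fibril-associated chains, Col9a1, Col9a3, Col19a1 and Col22a1, lay under the filter.

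The minor fibrillar chains assemble with, or nucleate, the major fibrils. Col5a2, a chain of type V collagen that starts fibrils of type I, was 10.41, 10.24, 10.68 and 10.35 in control and 11.71, 11.61, 10.68, 11.08 and 10.25 in ACDiEKO. The near-identical replicates and replicate 4 exceeded all controls, replicate 3 equalled the highest and replicate 5 lay at the lower end. The difference of 0.50 (SE 0.28) did not pass (limma, adjusted p = 0.25). Its partner chain Col5a1 was 7.30 to 7.55 in control and 7.55 to 7.68 in ACDiEKO, a difference of 0.18 (SE 0.08; adjusted p = 0.17). Col27a1 differed by 0.00, and Col2a1, Col5a3, Col11a1, Col11a2 and Col24a1 lay under the filter. The fibrillar chains Col1a1 (-0.01, and 0.05 after median centring), Col1a2 (-0.45) and Col3a1 (-0.04, and 0.02 after it), the last a neighbour of Col5a2, did not pass either; Col1a2 passed in 3 alternatives, among them all 9 arrays as samples (adjusted p = 0.0343).

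In Col18a1, Col12a1 and Col5a2, ACDiEKO replicates 1, 2 and 4 were higher than replicates 3 and 5, as they were in Col4a1 and Col4a2. The same order held in Col4a3, which was not higher in ACDiEKO, by a small margin in Col4a5, and in the smooth muscle marker mean, whose part in it was not tested. Col14a1 had the opposite order, with replicates 3 and 5 highest. Replicates 1 and 2 count as 1 sample, so each order rests on 4 samples.

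The other tested chains did not pass. Col8a1, a short-chain collagen of hexagonal networks made by vascular cells, was 6.88, 6.93, 7.46 and 6.88 in control and 6.76 to 6.88 in ACDiEKO. Control 3 alone stood high, and the difference was -0.22 (SE 0.13; limma, adjusted p = 0.282). Col23a1, a transmembrane collagen, averaged 8.21 ± 0.16 (SD, n = 4) in control and 7.90 ± 0.12 (SD, n = 4) in ACDiEKO, with overlap, a difference of -0.31 (SE 0.10; adjusted p = 0.0747, and 0.0382 without control replicate 2). Col6a6, a chain of the beaded filament collagen VI, differed by 0.13 (SE 0.15), with ACDiEKO replicate 4 at 6.77 and all other arrays at 6.06 to 6.27.

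The 23 chains under the filter were almost flat. They included the collagen VI chains Col6a1 to Col6a5, the cartilage chains Col2a1, Col9a1, Col9a3, Col10a1, Col11a1 and Col11a2, the transmembrane chains Col13a1, Col17a1 and Col25a1, and Col8a2, Col26a1 and Col28a1. Values ran from 4.85 to 6.44, and apart from Col6a5 the highest and lowest array of a chain differed by at most 0.26. Col6a5 was 6.44 on ACDiEKO replicate 4 and 5.74 to 5.93 elsewhere. Its neighbour Col6a6 was highest on the same array.

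Many of these values were the same number, to the last deposited digit, on several arrays. In 18 of the 23 untested chains at least 4 arrays shared one value, against 42.1% of all untested genes, and Col17a1 and Col26a1 had a single value on all 9 arrays. Among the tested chains this held for 6 of 15 (Col4a5, Col6a6, Col8a1, Col9a2, Col16a1 and Col27a1), against 13.5% of all tested genes. No 2 arrays shared a value in Col14a1, Col18a1, Col4a4, Col4a3 or Col12a1. For a chain whose arrays share one value, the array shows no difference between genotypes that could be sized, and this does not show equal expression.

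**Figure D4:**
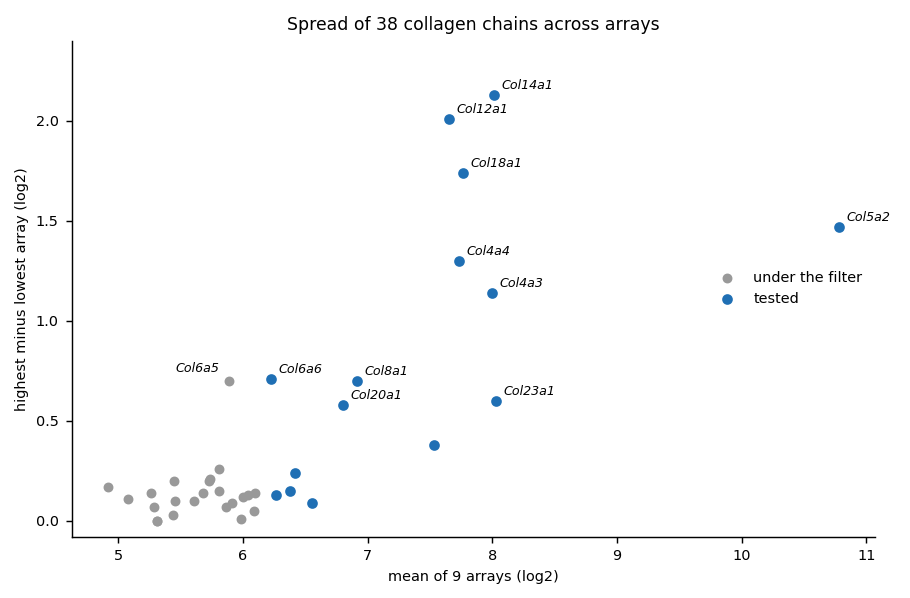
For each of 38 collagen chains, the highest minus the lowest of 9 arrays (y axis, log2) against the mean of the 9 arrays (x axis, log2), with tested chains in blue and chains under the filter in grey. Chains with a spread over 0.5 are named; all grey points but Col6a5 lie at or under 0.26.

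Promoter windows were found for 30 of the 38 chains in RefSeq, 33 windows in all, and Col14a1, Col5a2, Col4a3 and Col12a1 had none of their own. The MEF2 motif, searched on both strands, lay in 1 of these windows (3.03%; Col13a1, a chain under the filter) and in 3.19% of all windows. None of the 12 windows of tested chains held it. The CArG box, the motif of SRF, lay in 1 window (Col6a4) and in 1.63% of all windows. CACCC lay in 25 of the 33 windows, or 75.8%, against 57.5% of all. These shares were not matched for G+C. It ran from 41.7% to 75% in the windows of the chains, most of them above the median of 52.7% over all windows. These are matches of letters within 300 bases, and say nothing about sites elsewhere.

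The enzymes that make and modify collagen, and the proteins that bind it, were described from 4 lists of tested genes. Of 18 tested chaperones and enzymes of collagen synthesis, 7 rose, 2 fell and 9 did not pass. That is 50% called, against 16.1% of all genes (median difference 0.16). With the stricter filter 17 were tested, of which 7 rose and 2 fell, where 23.2% of all tested genes were called. P3h2, a prolyl 3-hydroxylase that acts on collagen IV, rose from 9.32 ± 0.33 to 10.83 ± 0.36 (SD, n = 4 and 4; limma, adjusted p = 0.00375). P4ha3, a catalytic subunit of prolyl 4-hydroxylase, rose by 1.93 (adjusted p = 0.0135), whereas its paralog P4ha2 fell by 0.94 (adjusted p = 0.0061, limma). Colgalt1, which puts sugars on collagen lysines, rose by 0.49 (limma, adjusted p = 0.0157). Among animals of one run of numbers 2 of the 18 rose and none fell (limma, adjusted p = 0.0366 for P3h2, 0.0343 for P4ha3, 0.0535 for P4ha2 and 0.0855 for Colgalt1), where 6.69% of all tested genes were called. Without ACDiEKO replicate 4, or without both near-identical arrays, 4 rose and 1 fell, beside 10.1% and 10.9% of all tested genes.

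Of 8 tested procollagen proteinases and cross-linking enzymes, 2 rose, 1 fell and 5 did not pass, or 37.5% called against 16.1% of all genes. With the stricter filter 5 were tested, of which 2 rose and 1 fell, where 23.2% of all tested genes were called. Pxdn, peroxidasin, which forms the sulfilimine cross-links of collagen IV, was 7.37 to 7.73 in control and 8.50 to 9.48 in ACDiEKO, a rise of 1.40 (SE 0.19; limma, adjusted p = 0.00316). Loxl1, a lysyl oxidase, rose by 1.37 (adjusted p = 0.0291; 0.0735, 0.0743 and 0.064 without control replicates 2, 3 and 4, 0.0615 without ACDiEKO replicate 5 and 0.163 among animals of one run of numbers, limma). Pcolce2, which enhances the cleavage of procollagen ends, fell by 0.86 (limma, adjusted p = 0.00464).

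Of 10 tested collagen-binding matrix proteins, Sparc, a collagen-binding glycoprotein, rose by 0.64 (limma, adjusted p = 0.00641), Abi3bp fell by 1.29 (adjusted p = 0.0141), and 8 did not pass, or 20% called. Of 8 tested receptors, Itgb1, the beta subunit of collagen-binding integrins, rose by 0.52 and Antxr1 fell by 0.85 (limma, adjusted p = 0.0474 and 0.0151). The other 6 did not pass, or 25% called. Both shares, 20% and 25%, lie near the 16.1% of all tested genes. The call of Itgb1 ended without any 1 of control replicates 1, 2 and 4 and ACDiEKO replicates 3 and 4 (adjusted p 0.069 to 0.121), without both near-identical arrays (0.112) and after quantile normalization (0.0642), and in 12 alternatives in all. Among animals of one run of numbers neither Itgb1 (0.0939) nor Antxr1 (0.0533) passed. The smooth muscle marker mean was higher in ACDiEKO on every array, and its part in these counts was not tested.

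**Figure D5:**
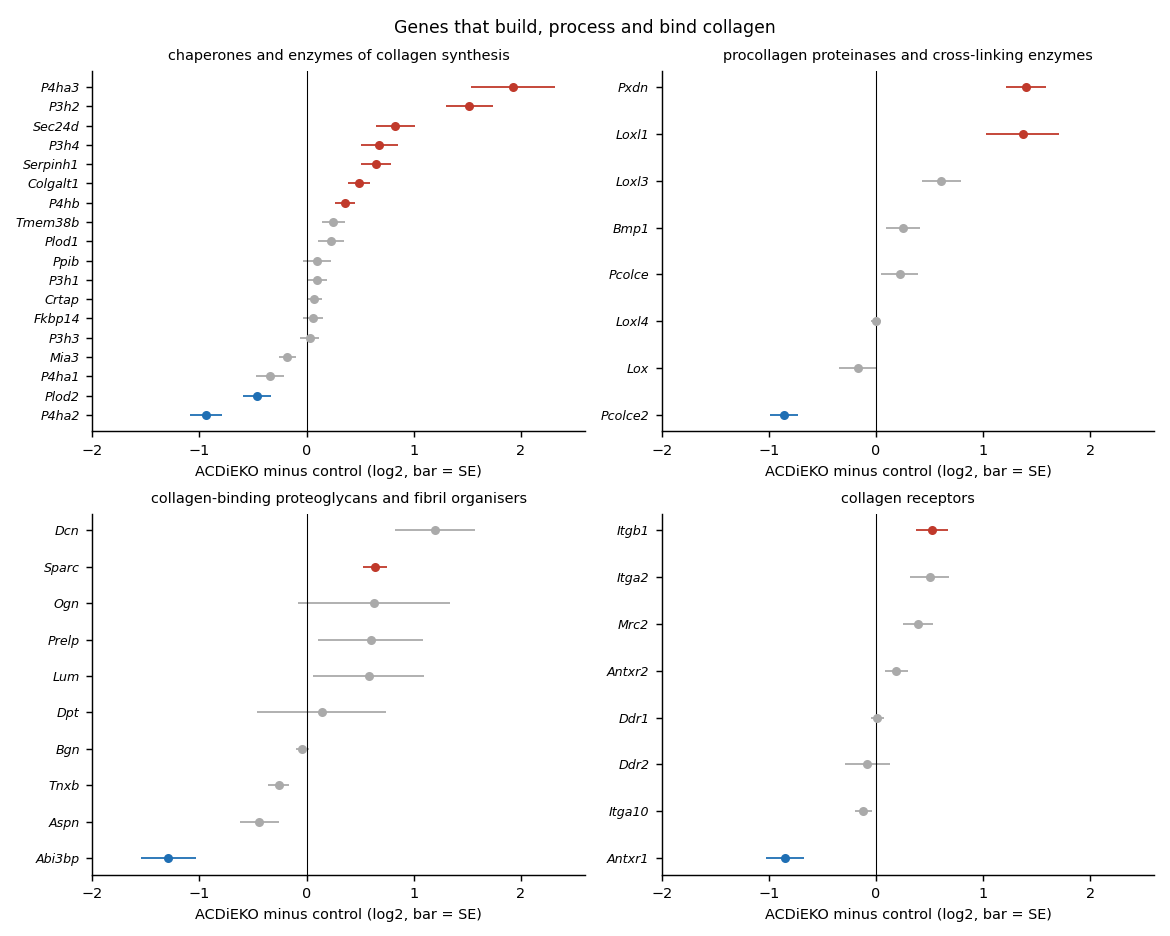
ACDiEKO minus control in log2 units (x axis) for the tested genes of 4 lists, with points for the difference and bars for the SE of the limma fit. Red points passed limma higher, blue points passed lower and grey points did not pass. P4ha3, P3h2, Pxdn and Loxl1 lie farthest to the right among called genes, and Abi3bp farthest to the left.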

How the data were processed

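Single-aorta RNA (5 ng) was measured on Clariom D mouse arrays. The authors deposited log2 values made with RMA, per the submitters' processing notes; the version and the genome build are not given in the sources used here. Of 72688 features, 6732 array controls were left out. Clusters were named from the platform annotation: 30604 had 1 symbol, 612 had several symbols of 1 gene, 1534 named several genes and were left out, and 33206 had none listed. Symbols were updated through the RefSeq gene table (827 changed), and the brightest cluster stood for each of 30743 genes. Genes with at least 4 arrays above 6.165 were tested on all 16698 such genes with limma 3.58.1 (R 4.3.3; lmFit, eBayes), with Benjamini-Hochberg adjustment and a threshold of 0.05. Groups came from the genotype given for each sample. The second control numbered 3 in the titles is called replicate 4. Same-numbered samples did not deviate together, so no block was used, although this check cannot exclude pairing.

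The members, gene lists and tests were chosen with earlier results of these data known. Named genes were all collagen chains, and up to 4 genes per list with the smallest p among those past the threshold; markers named individually were chosen after their values were seen. Tested on simulated data for ACDiEKO against control (5 runs, 16698 genes, 200 changed), the fit recovered 79.2% of changes of 1 log2 unit and 94.6% of 2, with 4.39% false calls. Alternatives covered normalization, filter, clusters, variance model, array weights, pairing, animal numbers, replicates and threshold. The number of arrays limits the precision. Figures were drawn with matplotlib 3.10.9.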

Additional observations from a re-analysis of the deposited data

Results flagged for a closer look

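In 7 of 30 groups of 4 samples (15 tested chains in each genotype) 1 sample stood apart from the other 3: its gap to the nearest sample, as a share of the group's range, exceeded Dixon's critical value, which chance exceeds in about 1 in 20 groups of untied values. Col6a6 was 6.77 on ACDiEKO replicate 4, against 6.18 for the nearest sample. Col8a1 was 7.46 on control replicate 3, against 6.93. Col20a1 was 6.54 on ACDiEKO replicate 5, against 6.74. Col4a5 was 6.25 on control replicate 1, against 6.42. Col16a1 was 6.48 on control replicate 2, against 6.37, and 6.35 in the averaged ACDiEKO replicates 1 and 2, against 6.37. Col27a1 was 6.57 on ACDiEKO replicate 4, against 6.55. Of these 6 chains, all but Col20a1 have at least 4 arrays that share one deposited value, so a small departure on 1 array stands out and that chance rate does not apply to them.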

How the results depend on the processing

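Col14a1 and Col4a4 kept their calls in the 20 alternatives that tested them; the stricter filter left both out. Each count below is a total of its own. The test called 2693 genes (1479 higher, 1214 lower), and 1695 (935, 760) in a fit that included the run of animal numbers, 1117 (630, 487) without the 2 controls of the other run, 1034 (604, 430) at an adjusted p of 0.01 and 4086 at 0.1 (1973 lower). Leaving out 1 replicate gave 1680 to 2725 (948 to 1480 higher, 732 to 1245 lower); without both near-identical arrays 803 were lower. Members called higher were 1 with no filter, with either animal number setting, without both near-identical arrays and at 0.01, 0 with the stricter filter, and 1 to 2 leaving out 1 replicate. Members called lower were 0 with the stricter filter, 2 with all 9 arrays as samples, 3 at 0.1, and 1 to 2 leaving out 1 replicate. With the replicate block, which kept all 9 arrays as samples, 2365 genes were called, 2 members higher and 1 lower. Same-numbered samples were treated as unpaired, and their deviations correlated at -0.00195, -0.146, 0.0346 and 0.0424. These correlations cannot exclude pairing, because they use both near-identical arrays and use ACDiEKO replicate 3 more than once. Higher calls were 54.9% of all, 66% after median centring and 65.6% after quantile normalization, which moved the median difference from -0.03 to 0.04 and 0.03. Signs turned, with no call, for Col16a1 (0.03 centring, 0.02 quantile), Col9a2 (0.03, 0.02), Col1a1 (0.05, 0.04; 0.01 in both animal number settings and without control replicate 4), Col3a1 (0.02, 0.01; -0.10 to 0.01 leaving out 1 replicate; 0.02 without both near-identical arrays), Col6a6 (-0.05 with the block, -0.02 to 0.17 leaving out 1 replicate) and Col27a1 (0.00 with the block, -0.01 in both animal number settings, -0.01 and 0.00 without control replicates 1 and 3, and up to 0.02 leaving out another replicate). The cause was not tested.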
